A study of Mus musculus with 38 samples.

Results

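Post-weaning protein restriction was examined in the sperm small RNA of male C57BL6/J mice whose dams had been on the control diet. The comparison takes 19 of the 38 mice of the series, all from control-fed dams. The 10 CTCT mice stayed on the control diet (CT, 20% protein) after weaning at 21 days, and the 9 CTPR mice were moved to the protein-restricted diet (PR, 8% protein) at that age and kept on it until they were killed at 11 to 13 weeks. The 9 PRCT and 10 PRPR mice, from dams on the restricted diet, entered only the estimate of the spread and a test of whether the post-weaning difference depended on the diet of the dam. Sperm were left to swim out of minced epididymides, so that each sample is a cell suspension and not a sorted cell type. Groups followed the list of mice given with the study, in which mouse 47I1 is CTPR and its littermate 47I2 is CTCT. The sample labels give these 2 mice the other way round. Each of 8 litters (02A, 09H, 35F, 45L, 47I, 49K, 53M and 57P) held 1 mouse of each group, and these 8 pairs were also compared within the litter. The features compared were single small RNAs, namely 48 tRNA isoacceptors, 92 tRNA end entries (reads starting or ending at a tRNA terminus), 203 miRNA hairpins and 5873 piRNAs, which are the 6216 members that had a mean of at least 10 reads and a read in at least 9 of the 19 mice, out of 52, 126, 614 and 414848 with any read in these mice.

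Mature sperm are transcriptionally silent, and much of their small RNA consists of fragments of mature tRNAs, most of them from the 5′ side, which are acquired partly from the epididymis. piRNAs, the partners of the Piwi proteins, are made in germ cells of the testis, where they silence transposons. miRNAs are cut from hairpin precursors and recognise their targets mainly through bases 2 to 8 of the mature strand, the seed. tRNA fragments, in particular those of tRNA-Gly-GCC, have been studied as carriers of information on the diet of the father.

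The mature strands of the miRNA hairpins on which the results turn are shown from RefSeq (GRCm38.p6), with the seed in capitals. The first 6 sequences, from 5 hairpins, belong to a cluster of testis miRNAs on the X chromosome, and the others are mir-690 and mir-3473e, which also had a low P, and 3 abundant hairpins used for comparison. The counts are per hairpin, so that the strand a read came from cannot be told.
mmu-miR-881-3p: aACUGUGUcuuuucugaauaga
mmu-miR-881-5p: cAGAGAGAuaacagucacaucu
mmu-miR-878-3p: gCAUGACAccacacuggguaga
mmu-miR-741-3p: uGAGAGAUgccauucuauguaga
mmu-miR-743a-5p: uAUUCAGAuuggugccugucau
mmu-miR-871-5p: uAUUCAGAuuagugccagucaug
mmu-miR-690: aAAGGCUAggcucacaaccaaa
mmu-miR-3473e: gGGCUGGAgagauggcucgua
mmu-miR-10a-5p: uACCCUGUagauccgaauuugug
mmu-miR-148a-3p: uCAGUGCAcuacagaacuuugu
mmu-let-7g-5p: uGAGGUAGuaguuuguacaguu
In this set mmu-miR-743a-5p and mmu-miR-871-5p share the seed AUUCAGA. The hairpins of mir-743a (chrX:66776757-66776818), mir-741 (chrX:66796805-66796875), mir-878 (chrX:66801508-66801585), mir-881 (chrX:66801944-66802021) and mir-871 (chrX:66810428-66810504) all lie on the minus strand. Hairpins mir-690 (chr16:28599935-28600043), mir-3473e (chr5:31667231-31667340) and mir-148a (chr6:51269812-51269910) are also on the minus strand, and mir-10a (chr11:96317165-96317274) and let-7g (chr9:106178840-106178927) on the plus strand.

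Reads matching the genome ranged from 4465281 to 6706672 in the CTCT and from 4596770 to 7316533 in the CTPR mice, and levels are given as reads per 1000000 of these (RPM). The mice differed widely in how much of each class they held. miRNA reads ranged from 1553 to 37886 RPM in the CTCT and from 1646 to 55459.8 in the CTPR mice, with the lowest values in mouse 07C3 and both mice of litter 02A. Small nucleolar RNA, which takes its share from the same total, made up 6.30% to 45.4% of the reads in the CTCT mice (median 29.5%) and 7.48% to 34.3% in the CTPR mice (median 15.2%), and was lower in the CTPR littermate in 6 of 8 litters. The part of this difference in the results that follow was not tested. In whole sperm suspensions, fewer cells of a type and less RNA per cell cannot be told apart.

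Across the members, most small RNAs of all 4 kinds were more abundant in the CTPR than in the CTCT mice, by a similar factor. The tRNA isoacceptors and tRNA ends are not separate kinds of reads, since both count the tRNA reads of a mouse. The log2 fold change was above 0 in 48 of 48 tRNA isoacceptors, 87 of 92 tRNA ends, 194 of 203 miRNAs and 4808 of 5873 piRNAs, and its median was 0.63, 0.65, 0.63 and 0.63 in the same order. No member passed an adjusted P of 0.05 (edgeR's quasi-likelihood test with Benjamini-Hochberg adjustment over 6216 members, lowest adjusted P = 0.110). In simulated counts the same test found 0% of 200 members changed by 1 on the log2 scale at that level. Of 200 changed by 2 it found 21%, and 35.4% of its calls were then false. At a nominal P under 0.05, 660 members (10.6% of those tested) were higher and 22 (0.354%) lower in the CTPR group. In counts simulated with no change the same test called 9.83% of members in either direction. Members were simulated independently, whereas real members of a class share the class total of a mouse. How far the number and direction of calls vary under such sharing was not simulated. The older quasi-likelihood method of edgeR, which models the spread of low counts differently, gave 251 members (4.04%), 242 of them higher. It called 5.36% of members in the counts simulated with no change.

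The common factor was smaller under other scalings. With TMM factors the median log2 fold change over all members was 0.09 and the split was 161 higher to 104 lower. With DESeq2's size factors it was 123 to 115, and with the reads of a member's own class as the library size it was 87 to 137 (3.60% in either direction), with a median of -0.01. Differences are given in RPM unless another scale is named.

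Within litters the common difference was not shared by all pairs. The median log2 difference between the CTPR and the CTCT littermate over tRNA isoacceptors was 1.11 in litter 35F, 0.94 in 57P, 0.75 in 49K and 0.68 in 53M, but -0.24 in 47I and -0.65 in 45L. For miRNAs it was 1.69 in litter 57P and 1.25 in 35F, and -0.70 in 49K, so that litter 49K had more tRNA but less miRNA in the CTPR mouse. For piRNAs it was 0.98 in litter 57P and 0.88 in 35F and lay between -0.03 and 0.24 in the other 6 litters. With litter as a block the median over all members was 0.43, with 286 members higher and 20 lower at a nominal P under 0.05 and the lowest adjusted P at 0.908.

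**Figure D1:**
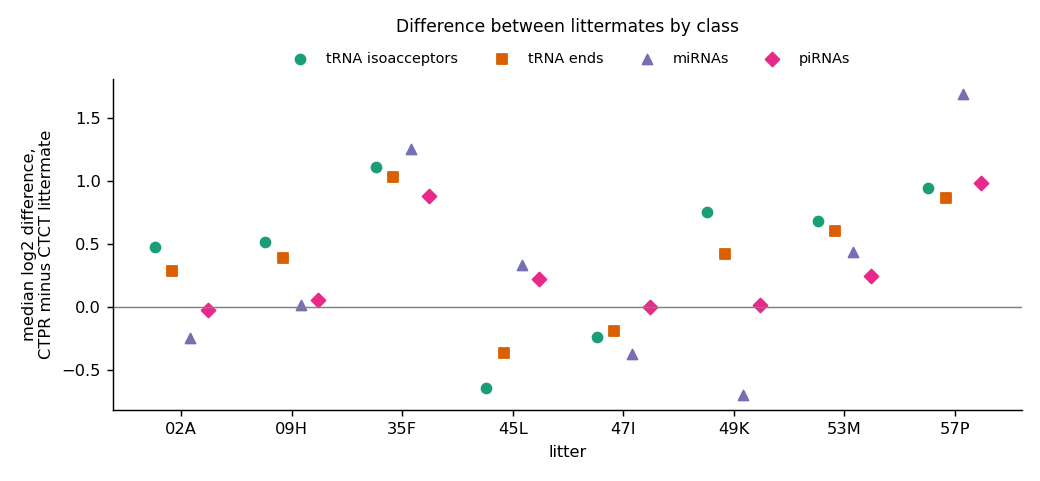
Median over the members of each kind (tRNA isoacceptors, tRNA ends, miRNAs and piRNAs) of the log2 difference in RPM between the CTPR and the CTCT littermate, on the vertical axis, for each of the 8 litters on the horizontal axis. All 4 medians are high in litters 35F and 57P, whereas litters 45L and 47I fall below 0 for tRNA.

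Among the tRNA isoacceptors, the pools of tRNAs that carry 1 amino acid with 1 anticodon, 11 of 48 (22.9%) were higher in CTPR at a nominal P under 0.05 and 0 were lower, against 11.0% of all members in either direction. The older method called 6 (12.5%). The 9 that the naming rule picked among the 11 were His-GTG, Glu-TTC, Gly-GCC, Leu-CAA, Arg-CCT, Thr-AGT, Ile-AAT, Val-AAC and Lys-TTT. The other 2, tRNA-Arg-TCT (1.24, P = 0.0491) and tRNA-Thr-CGT (0.99, P = 0.0431), were named after their values were seen. Relative to all tRNA reads the 9 lay between 0.14 (Glu-TTC, P = 0.493) and 0.52 (Thr-AGT, P = 0.123), with the lowest P at 0.0514 for Gly-GCC, so that 0 of them passed. With litter as a block 7 of the 9 passed, and tRNA-Ile-AAT (0.53, P = 0.149), tRNA-Lys-TTT (0.53, P = 0.134), tRNA-Arg-TCT (0.77, P = 0.0796) and tRNA-Thr-CGT (0.58, P = 0.128) did not. With 47I1 and 47I2 grouped by the sample labels tRNA-Val-AAC did not pass (0.65, P = 0.106). The 19 isoacceptors of essential amino acids, which mice must take from the diet, and the 29 others had median log2 fold changes of 0.67 and 0.61. At a nominal P under 0.05, 7 of the 19 and 4 of the 29 were higher, the older method called 3 in each list, and relative to all tRNA reads 0 were higher and 2 lower in each.

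tRNA-His-GTG, which reads the histidine codons, had 411, 1056 and 1926 RPM at its lowest, median and highest in the CTCT mice and 787, 1890.3 and 6381 in the CTPR mice. The upper 4 CTPR mice lay above every CTCT mouse, and the rest of the groups overlapped. The difference was 1.14 ± 0.34 (SE) on the log2 scale (nominal P = 0.00197, adjusted P = 0.257). CTPR was the higher littermate in 6 of 8 litters, the exceptions being 45L (787 against 1856) and 53M (1307 against 1926). The highest value came from mouse 49K3, whose CTCT littermate had 891. Relative to all tRNA reads the difference was 0.33 (P = 0.175).

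tRNA-Gly-GCC, the source of the most abundant tRNA fragment of sperm, had 11161, 45720.0 and 92195 RPM at its lowest, median and highest in the CTCT mice and 19145, 83358 and 160935 in the CTPR mice. The groups overlapped, with 4 CTPR mice above the CTCT range. The log2 fold change was 0.91 ± 0.35 (nominal P = 0.0124, adjusted P = 0.363), and 0.73 with litter as a block (P = 0.00582). It was 0.26 relative to all tRNA reads (P = 0.0514), 0.37 with TMM factors (P = 0.148) and 0.35 with DESeq2 (P = 0.191), none of which passed. RefSeq lists 14 nuclear genes for this isoacceptor on 7 chromosomes, whose reads cannot be assigned to single genes. tRNA-Glu-TTC, a glutamate tRNA, had a median of 1896 RPM in the CTCT and 3803 in the CTPR mice (log2 fold change 0.82 ± 0.31, nominal P = 0.0111), and was higher in the CTPR littermate in 7 of 8 litters. The second glutamate isoacceptor, Glu-CTC, is far more abundant, at medians of 15363 and 23403, and had a log2 fold change of 0.44 ± 0.30 (P = 0.153).

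The other isoacceptors named were less abundant. tRNA-Leu-CAA was between 17.2 and 102 RPM in the CTCT and between 63.1 and 132 in the CTPR mice, with 7 of 10 CTCT mice below the lowest CTPR mouse (0.80 ± 0.32, nominal P = 0.0154). tRNA-Arg-CCT and tRNA-Thr-AGT had medians of 102 and 51.1 in the CTCT and 196 and 110.3 in the CTPR mice, with log2 fold changes of 0.97 ± 0.42 and 1.18 ± 0.53. For tRNA-Ile-AAT, tRNA-Val-AAC and tRNA-Lys-TTT the log2 fold changes were 0.79, 0.82 and 0.82, at nominal P between 0.0353 and 0.0461, and the older method gave P between 0.0542 and 0.0640. The valine isoacceptor was higher in the CTPR littermate in 6 of 8 litters, but its highest value of all, 5712, was in CTCT mouse 45L3.

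Other isoacceptors lay closer to 0. tRNA-Lys-CTT, with medians of 7082 and 8583 RPM, had a log2 fold change of 0.30 ± 0.28. tRNA-Gly-CCC (6954 and 6793) was at 0.16 ± 0.54, tRNA-Val-CAC (6510.4 and 5321) at 0.05 ± 0.36 and tRNA-Arg-CCG (45.6 and 55.0) at 0.03 ± 0.37. Relative to all tRNA reads, 4 of 48 isoacceptors (8.33%) passed a nominal P under 0.05, all of them lower in CTPR, namely tRNA-Gly-TCC (-0.62, P = 0.0206, named after its values were seen), Arg-CCG (-0.67, P = 0.0101), Val-CAC (-0.63, P = 0.0237) and Lys-CTT (-0.43, P = 0.0445). In RPM the log2 fold changes of all 4 were above 0, and with TMM factors P was 0.0827, 0.136 and 0.113 for the last 3. Among the tRNA-Gly isoacceptors with tRNA-Lys-CTT and tRNA-His-GTG, a list drawn from work on paternal low-protein diets, 2 of 6 were higher at a nominal P under 0.05 by either quasi-likelihood method, and the median log2 fold change was 0.37, below that of all isoacceptors.

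**Figure D2:**
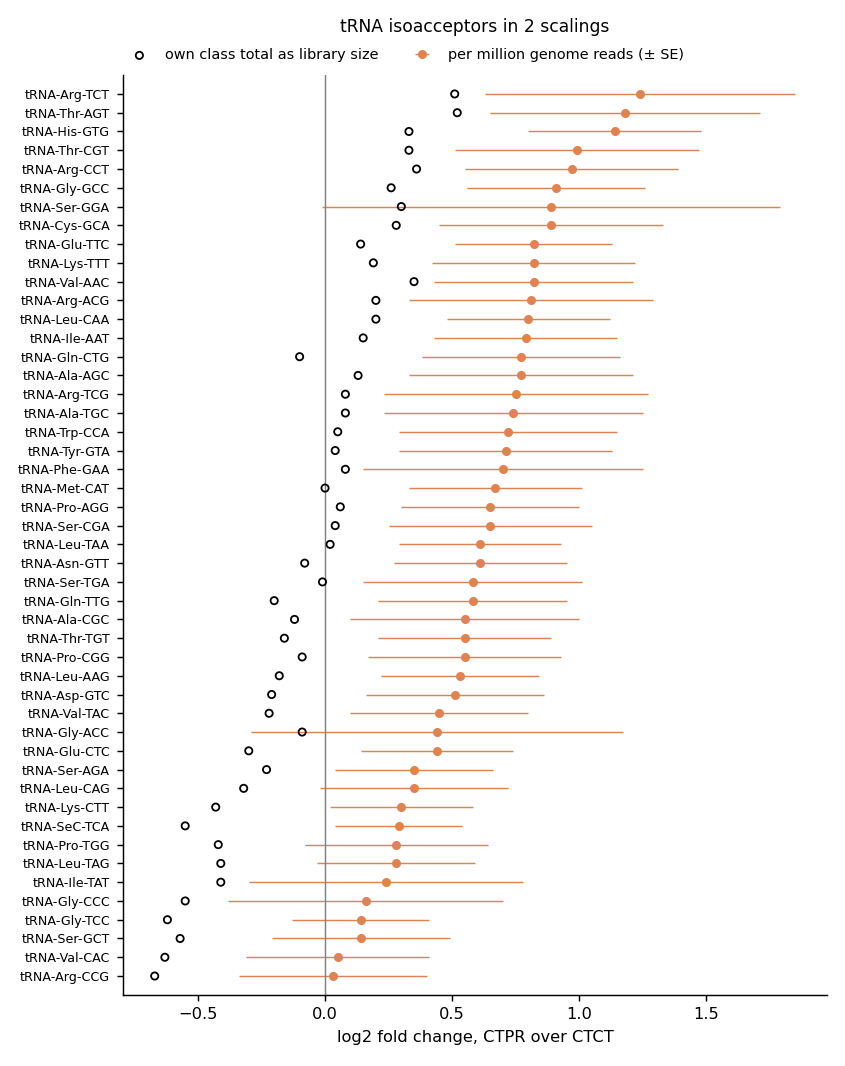
Log2 fold change of CTPR over CTCT for the 48 tRNA isoacceptors, 1 per row, in RPM (filled points, bars are ± SE) and with all tRNA reads as the library size (open points). The filled points all lie above 0, from 0.03 for Arg-CCG to 1.24, and the open points lie on both sides of 0.

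The composition was also measured directly as the share of tRNA-Gly-GCC in all tRNA reads of a mouse. It was 47.1% ± 10.2 (SD, n = 10) in the CTCT and 56.6% ± 9.22 (n = 9) in the CTPR mice, a difference of 9.47 percentage points (two-sided exact permutation test, P = 0.0511). Every CTPR mouse had a larger share than its CTCT littermate, in 8 of 8 litters (exact sign-flip test over permutations, P = 0.00781, the smallest that 8 pairs allow). The mean difference of 6.43 points came mainly from litters 57P (34.2% against 58.2%) and 35F (47.3% against 66.9%). In litters 47I, 45L and 53M the difference was 2.99, 2.69 and 1.52 points, and in 49K, 02A and 09H it was 0.367, 0.296 and 0.0130 points. With 47I1 and 47I2 grouped by the sample labels, the difference between the groups was 8.84 points (P = 0.0689), and the CTPR mouse then had the smaller share in that litter, so that the share was larger in 7 of 8 litters (mean difference 5.68 points, exact sign-flip P = 0.156). Without mice 07C3 and 35F2, whose class totals did not add up to the reads of the library as they did in the other 17 mice, the difference between the groups was 7.37 points (P = 0.122).

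Reads from 5′ ends made up 82.4% to 91.2% of the tRNA reads in the CTCT mice (median 85.9%) and 78.5% to 87.0% in the CTPR mice (median 83.9%). The means were 85.9% ± 2.62 (n = 10) and 83.7% ± 2.84 (n = 9), a difference of -2.23 percentage points (two-sided exact permutation test, P = 0.0934). The CTPR littermate was higher in 4 of 8 pairs, with P = 0.328 in the exact sign-flip test. Entries for 3′ ends and for ends carrying the CCA tail held 0.347% and 0.330% of tRNA reads in the CTCT and 0.326% and 0.405% in the CTPR mice. Only genome-matched reads were counted, so that reads with a CCA tail that do not match the genome are left out of all CCA end values.

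**Figure D3:**
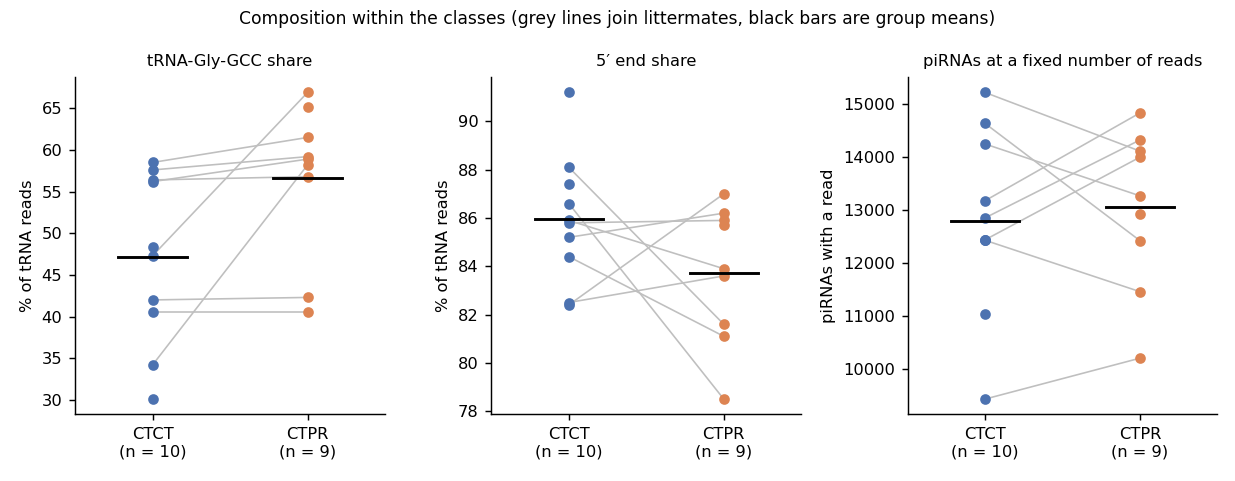
Share of tRNA-Gly-GCC in tRNA reads, share of 5′ end reads in tRNA reads, both in percent, and number of listed piRNAs expected with a read when each mouse is thinned to 58209 piRNA reads. Points are the 10 CTCT and 9 CTPR mice, black bars are group means and grey lines join the 8 littermate pairs, all of which go up for tRNA-Gly-GCC.

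Of the 92 tRNA end entries, 9 (9.78%) were higher in CTPR at a nominal P under 0.05 and 0 lower, and the older method called 5 (5.43%). Relative to all tRNA reads 7 (7.61%) passed, all of them lower. The 5′ end of tRNA-His-GTG had medians of 768 and 997 RPM and ranges of 288 to 1356 and 450.2 to 4890.1 in the CTCT and CTPR mice (log2 fold change 1.23 ± 0.37, nominal P = 0.00168, adjusted P = 0.252). The 5′ end of tRNA-Glu-TTC had medians of 1468 and 3169 (0.92 ± 0.33, P = 0.00781), and 5 CTPR mice lay above every CTCT mouse. The CCA end of tRNA-Ile-AAT, the 3′ terminus of a mature isoleucine tRNA, had medians of 38.9 and 87.5 (1.04 ± 0.37, P = 0.00761). Relative to all tRNA reads these 3 entries were at 0.37 (P = 0.218), 0.24 (P = 0.279) and 0.38 (P = 0.252), and with litter as a block P was 0.0503, 0.0125 and 0.0186.

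The glycine 5′ ends were listed mainly under Gly-CCC. The entry for the Gly-CCC 5′ end held 2.79 to 42.1 times the reads of the whole Gly-CCC isoacceptor entry in a mouse (median 10.1), and the Gly-GCC 5′ end only 0.0680 to 0.244 times those of Gly-GCC, so that reads of the glycine isoacceptors were assigned differently in the 2 kinds of entry and the 5′ ends of Gly-GCC and Gly-CCC cannot be told apart. The Gly-CCC 5′ end had medians of 40557 and 66826 RPM (log2 fold change 0.84 ± 0.35, nominal P = 0.0221), with 4 CTPR mice above the CTCT range. The Gly-GCC 5′ end had medians of 5123 and 8261 (0.57 ± 0.32, P = 0.0793). The scarce Gly-CCC 3′ end had medians of 5.83 and 12 (1.07 ± 0.45, P = 0.0206), and 6 CTPR mice lay above the CTCT range. The Gly-CCC 5′ and 3′ ends were at 0.18 (P = 0.146) and 0.40 (P = 0.188) relative to all tRNA reads.

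In 3 of 92 tRNA end entries (3.26%) the CTPR littermate was higher in all 8 litters, and in 0 it was lower, against 1.54% and 0.0483% of all members. All 3 are CCA ends. The CCA end of tRNA-Lys-TTT ranged from 0 to 13.7 RPM in the CTCT and from 4.13 to 21.5 in the CTPR mice (log2 fold change 1.11 ± 0.48, nominal P = 0.0268), and 6 of 10 CTCT mice lay below the lowest CTPR mouse. The CCA ends of tRNA-Phe-GAA and tRNA-Leu-AAG had medians of 13.3 and 2.51 in the CTCT and 25.1 and 4.24 in the CTPR mice, at P = 0.126 and P = 0.0541. The Lys-TTT CCA end was at 0.60 relative to all tRNA reads (P = 0.130). All 3 were higher in 47I1 than in 47I2, so that with the sample labels none of them was higher in all 8 litters. A different pair of entries, the CCA ends of tRNA-Arg-ACG and tRNA-Leu-CAA, was then higher in all 8, and these were named after their values were seen.

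Among the miRNAs, 7 of 203 (3.45%) were higher in CTPR at a nominal P under 0.05 and 0 lower, and the older method called 1 (0.493%). In counts simulated with no change the same test called 7.88% of miRNAs in either direction, and the older method 3.45%. The numbers of miRNAs called were thus below those simulated with no change. Relative to all miRNA reads 16 (7.88%) passed, 5 higher and 11 lower. The lowest P belonged to mir-881, from the X-linked cluster of miRNAs expressed in the testis. It had 14.9, 228 and 561 RPM at its lowest, median and highest in the CTCT mice and 70.0, 664 and 978 in the CTPR mice. The upper 5 CTPR mice lay above every CTCT mouse, and the CTPR mice of litters 02A (70.0) and 09H (139) were close to their littermates (67.2 and 130.3). The log2 fold change was 1.21 ± 0.45 (nominal P = 0.0112, adjusted P = 0.357), at P = 0.0184 by the older method. It was higher in the CTPR littermate in all 8 litters, as was 1 of 203 miRNAs (0.493%) against 1.54% of all members, and 0 miRNAs were lower in all 8. Relative to all miRNA reads it was 0.67 higher (P = 0.00808), with TMM factors 0.66 (P = 0.0274) and with litter as a block 0.79 (P = 0.0349). With the sample labels for litter 47I it was 1.12 (P = 0.0189), and the CTPR mouse was then the lower one in that litter.

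The X-linked cluster as listed here had 21 hairpins with a read, of which 17 could be tested. All 17 had a log2 fold change above 0 (median 0.82, range 0.52 to 1.21), and 4 (23.5%) were higher at a nominal P under 0.05, against 3.45% of all miRNAs. The older method called 1 of the 17, and relative to all miRNA reads 2 were higher. The 4 were mir-881, mir-878, mir-741 and mir-743a, the last of which the naming rule did not pick and which was named after its values were seen. With the miRNA total as the library size, 15 of the 17 lay above 0, with a median of 0.25 against 0.00 for all miRNAs, and with TMM factors the medians were 0.31 and 0.03. Copies of mir-465 in this cluster are near-identical, and their reads may have been split between entries. By the summed reads of the cluster the CTCT mice ranged from 32.7 to 1021 RPM (median 389) and the CTPR mice from 156 to 1515 (median 961), and the sum was higher in the CTPR littermate in all 8 litters. With the sample labels it was higher in 7 of 8, since 47I1 had 1083 and 47I2 had 1021.

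The single members of this cluster were of lower abundance. mir-878 had medians of 9.65 and 20.3 RPM in the CTCT and CTPR mice (log2 fold change 0.93 ± 0.44, nominal P = 0.0392), but was the higher littermate in CTPR in only 4 of 8 litters. mir-741 had medians of 13.1 and 39.1 (0.96 ± 0.47, P = 0.0479) and was higher in 6 of 8 litters. mir-871 had medians of 16.4 and 36.9 and was higher in 7 of 8 (0.83 ± 0.42, P = 0.0521). Outside the cluster, mir-3473e, a scarce hairpin with medians of 1.54 and 4.82, had the largest log2 fold change of the 203 miRNAs (1.75 ± 0.76, P = 0.0252), and mir-690 had medians of 25 and 53.4 (1.04 ± 0.48, P = 0.0372). The last of the 7, mir-181b-1, had medians of 1.33 and 5.79 (1.55 ± 0.77, P = 0.0489) and was named after its values were seen. Relative to all miRNA reads mir-878 was at 0.30 (P = 0.261) and mir-743a at 0.31 (P = 0.338), whereas mir-741 (0.46, P = 0.0420), mir-690 (0.57, P = 0.0352), mir-3473e (1.22, P = 0.0270) and mir-181b-1 (0.99, P = 0.0216) passed a nominal P under 0.05. With litter as a block mir-741 (P = 0.0493) and mir-690 (P = 0.0168) passed, and mir-878 (P = 0.154), mir-743a (P = 0.0913), mir-3473e (P = 0.0838) and mir-181b-1 (P = 0.0987) did not.

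**Figure D4:**
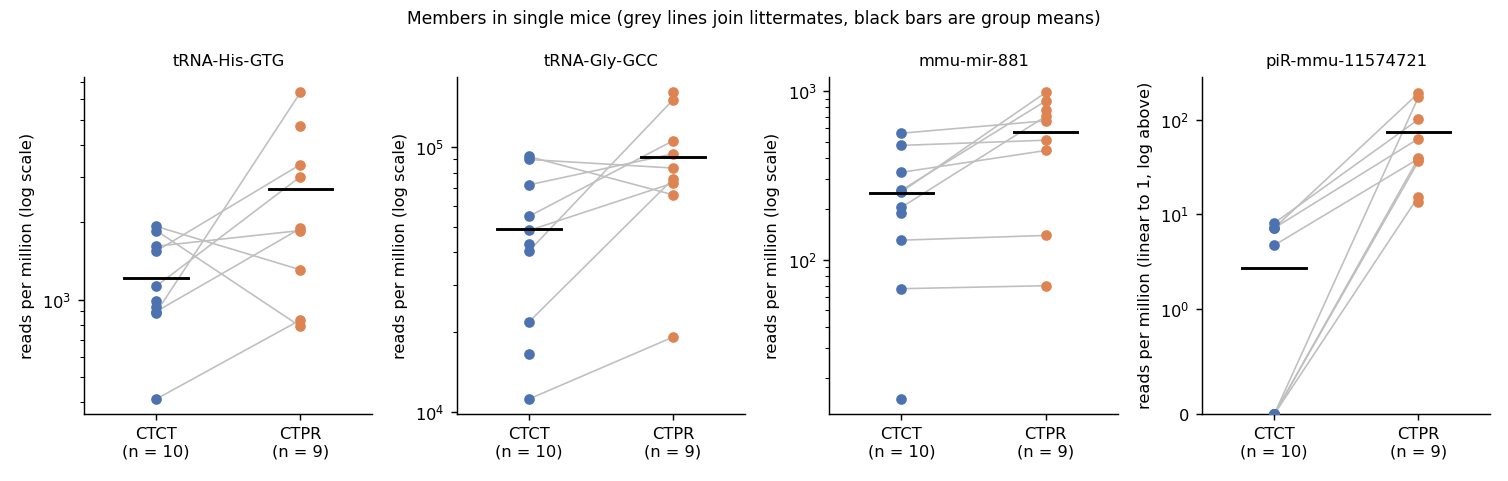
Level in RPM, on log axes (linear from 0 to 1 in the fourth panel), of tRNA-His-GTG, tRNA-Gly-GCC, mir-881 and piR-mmu-11574721 in the 10 CTCT and 9 CTPR mice. Black bars are group means and grey lines join littermates. The groups overlap for the first 3, and for piR-mmu-11574721 the CTPR mice start at 13.6 where the CTCT mice end at 8.08. That piRNA met the filter on low counts only through the CTPR mice.

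Of the 5 most abundant miRNAs, 4 had a log2 fold change above 0. mir-148a, the most abundant, ranged from 162 to 8295 RPM in the CTCT mice (median 3347) and from 169 to 13767 in the CTPR mice (median 6323), with a log2 fold change of 0.89 ± 0.54 (P = 0.106). mir-143 (medians 1343 and 2272) was at 0.84 ± 0.53 and mir-21a (557 and 1116) at 0.74 ± 0.54, and both stood within 0.1 of 0 relative to all miRNA reads. mir-3535 lay on the other side of 0, with medians of 789 and 590.3 and a log2 fold change of -0.39 ± 0.32 (P = 0.231), which was -1.04 relative to all miRNA reads (P = 0.0391) and -1.17 with TMM factors (P = 0.0113). mir-10a, a miRNA encoded in a Hox gene cluster, had medians of 559 and 691 (0.17 ± 0.43, P = 0.699), and was 0.43 lower on the log2 scale relative to all miRNA reads (P = 0.00186, adjusted P = 0.888).

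The other families were described by their counts. In none of them did a hairpin pass a nominal P under 0.05 in RPM. The 12 hairpins of let-7 and mir-98, miRNAs of differentiated cells, had a median log2 fold change of 0.36, and let-7g, with medians of 349.6 and 669.6 RPM, was at 0.60 ± 0.50. Relative to all miRNA reads the let-7 median was -0.29, with 4 of 12 above 0. For mir-10, mir-99, mir-100 and mir-125 the medians were 0.45 and -0.16, with 0 of 8 above 0 on the second scale. The mir-34 and mir-449 family, abundant in the male germ line, had medians of 0.75 and 0.15 over 4 hairpins, mir-34c being at 0.96 ± 0.52 (medians 293 and 724, P = 0.0731). The mir-17-92 and mir-106b-25 clusters stood at 0.68 and 0.12, the mir-30 family at 0.59 and -0.02, the epithelial mir-200 family at 0.52 and -0.06, the mir-183, mir-96 and mir-182 cluster at 0.55 and -0.05, and the miRNAs taken from work on paternal stress at 0.70 and 0.10. The medians of all 203 miRNAs were 0.63 and 0.00.

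**Figure D5:**
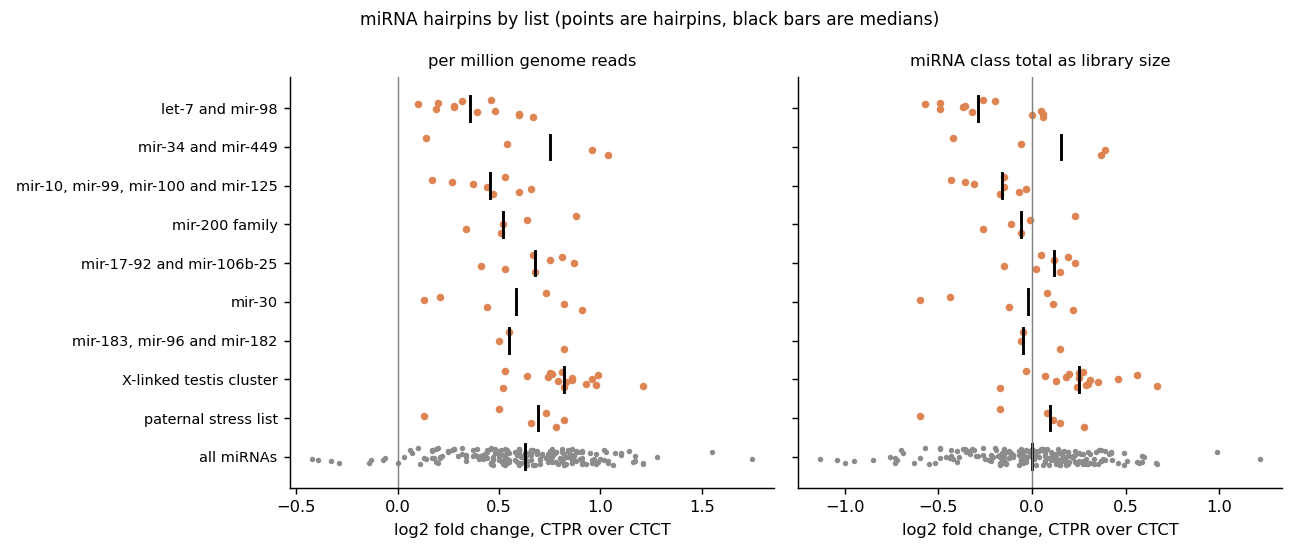
Log2 fold change of CTPR over CTCT of single miRNA hairpins (points) by list, with the median as a black bar, in RPM on the left and with all miRNA reads as the library size on the right. On the right the X-linked testis cluster has its median at 0.25 and let-7 and mir-98 at -0.29.

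Markers of other cells that the suspension could hold were summed over the hairpins tested. The germ line markers mir-34b, mir-34c and mir-449 (3 of 3 tested) ranged from 17.3 to 976 RPM in the CTCT mice (median 314) and from 76.4 to 1425 in the CTPR mice (median 773). Epithelial markers (7 of 7 tested) ranged from 41 to 1892 and from 34.2 to 2333, with medians of 546 and 1089.8. Muscle markers, led by mir-143, ranged from 63.5 to 4241 and from 71.6 to 8575 (6 of 9 tested), with medians of 1549 and 2606. Blood markers (3 of 8 tested) had medians of 23.4 and 33.6, and the hepatocyte miRNA mir-122 was below the filter on low counts. The CTPR littermate was higher in 5 of 8 litters for the germ line and epithelial sums and in 4 of 8 for the muscle and blood sums. No marker passed a nominal P under 0.05, and their part in the tRNA and miRNA differences was not tested.

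Of the piRNAs, 633 of 5873 (10.8%) were higher in CTPR at a nominal P under 0.05 and 22 (0.375%) lower. In counts simulated with no change the same test called 10% of piRNAs in either direction, and the older method 5.5%. The older method called 239 (4.07%), and with the piRNA reads as the library size the split was 82 higher and 115 lower (3.35% in either direction). Of the 633, 292 were among the 1248 piRNAs with a mean under 10 reads in the CTCT mice, which entered the test through the CTPR mice and so had to be higher there. The 30 most abundant piRNAs had 8 members (26.7%) higher and 0 lower, against 11.1% of the other 5843 in either direction, with median log2 fold changes of 0.55 and 0.63. The older method called 5 of the 30, and relative to all piRNA reads 1 was higher and 3 were lower. The listed piRNAs held 59.5% to 73.5% of the reads of the piRNA class in a mouse, and sequences of piRNAs were not used here.

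The most abundant, piR-mmu-3744158, had 114, 1111 and 3461 RPM at its lowest, median and highest in the CTCT mice and 173, 3185 and 5761 in the CTPR mice (log2 fold change 1.05 ± 0.51, nominal P = 0.0459). It was 0.68 with the sample labels (P = 0.198) and 0.42 relative to all piRNA reads (P = 0.257). The groups overlapped, with 3 CTPR mice above the CTCT range. piR-mmu-2819708, the next, shows how uneven single entries were. It was listed at 0 in CTPR mouse 35F1, in which the entry with the preceding number, piR-mmu-2819707, had 956 RPM, and at 5750.0 in 57P1 and 4194 in 47I2. Its log2 fold change was 0.49 ± 1.13 (P = 0.669). Entries with neighbouring numbers may share reads, and this was not tested.

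The piRNAs with the lowest P were scarce in the CTCT mice. piR-mmu-14277894 had no read in 7 of 10 CTCT mice (highest 0.832 RPM) and 0 to 19.7 in the CTPR mice (median 1.44, 2 of 9 with no read). piR-mmu-13264321 had no read in 8 of 10 CTCT mice (highest 1.94) and 0.949 to 19.0 in the CTPR mice (median 8.69). The mean in the CTCT mice was 0.700 reads for the first and 2.30 for the second, so that both passed the filter on low counts only through the CTPR mice, in which they are high, and no test of them is given. piR-mmu-14212198 ranged from 0.782 to 60.9 in the CTCT and from 2.06 to 362 in the CTPR mice (medians 7.07 and 76.8), and was higher in the CTPR littermate in all 8 litters (log2 fold change 3.18 ± 0.80, nominal P = 2.68e-04). With the sample labels it was 1.47 (P = 0.0909), since 47I1 had 294 RPM and 47I2 had 26.4, and the CTPR mouse was then the lower one in litter 47I. Among those that were lower, piR-mmu-9289197 had a median of 4.26 and a maximum of 30.3 in the CTCT mice, whereas 7 of 9 CTPR mice had no read. It passed the filter only through the CTCT mice (mean 2.11 reads in the CTPR mice), and no test of it is given.

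In 3 of 5873 piRNAs (0.0511%) every CTPR mouse lay above every CTCT mouse, and in 0 the reverse held, against 0.0483% of all members. With 47I1 and 47I2 grouped by the sample labels 1 other piRNA did so. Of the 3, the naming rule picked piR-mmu-11574721, which ranged from 0 to 8.08 RPM in the CTCT mice, with no read in 6 of 10, and from 13.6 to 190.3 in the CTPR mice (median 39.2). The fitted log2 fold change was 4.78. A read was found in 4 of 10 CTCT and in all 9 CTPR mice. The filter of 9 mice was thus met only through the CTPR mice, in which this piRNA is high, and no test of it is given. The separation of the groups rests on the grouping of litter 47I, in which 47I1 had 172 RPM and 47I2 had none. With the sample labels the log2 fold change was 1.47, and without that litter it was 4.37. The entry before it in number, piR-mmu-11574720, was more abundant and overlapped, from 56.5 to 962 in the CTCT and from 181 to 850.1 in the CTPR mice.

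Over the litters, 92 of 5873 piRNAs (1.57%, against 1.54% of all members) were higher in all 8 CTPR littermates and 3 (0.0511%) were lower in all 8. By the sample labels these counts were 54 and 5, and 0 piRNAs were shared between the groupings in either direction, since the exchange turns the sign in litter 47I. The 3 that were lower were scarce, and piR-mmu-9002755, with medians of 2.03 and 1.24 RPM, had a log2 fold change of -0.72 ± 0.43 (P = 0.0996). The number of different piRNAs differed by less than the spread between mice. Thinned to 58209 piRNA reads, a CTCT mouse held 12799 ± 1708 (SD, n = 10) and a CTPR mouse 13069 ± 1496 (n = 9) different piRNAs (difference 270.0, two-sided exact permutation test, P = 0.720), and the CTPR littermate held more in 4 of 8 litters. The lowest count, 9441, was in CTCT mouse 02A6 and the next, 10213, in its littermate 02A8.

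Whether the difference depended on the diet of the dam was tested as the post-weaning difference after control dams minus that after restricted dams. At a nominal P under 0.05, 346 of 6216 members (5.57%) differed, 293 of them with the larger difference after control dams, and 3 piRNAs passed an adjusted P of 0.05 (edgeR's quasi-likelihood test). The difference was larger after control dams in 149 of 268 members with TMM factors, 79 of 178 with DESeq2 and 148 of 189 with litter as a block. Of the 3 piRNAs, piR-mmu-5467705 and piR-mmu-47201994 entered the test only through the CTPR mice, in which they are high. With litter as a block 0 passed (189 at a nominal P under 0.05), with the sample labels 1, and with TMM factors or the older method 2 of the 3. With DESeq2 2 members passed an adjusted P of 0.05, of which only piR-mmu-14239525 was among the 3. Among the tRNA isoacceptors 3 of 48 passed a nominal P under 0.05 (6.25%, close to the 5.57% of all members). They were tRNA-Gly-GCC, tRNA-His-GTG and tRNA-Ala-TGC, the last named after its values were seen. With TMM factors 2 isoacceptors passed, 1 of them with the larger difference after control dams. With litter as a block 1 passed, in that direction, and with DESeq2 1 passed, in the other direction. tRNA-Gly-GCC was 0.91 higher on the log2 scale with the restricted diet after control dams and -0.22 after restricted dams (nominal P = 0.0267, adjusted P = 0.855), and for tRNA-His-GTG the values were 1.14 and 0.11 (P = 0.0398, adjusted P = 0.859). For mir-881 they were 1.21 and -0.06 (P = 0.0529), and 1 of 203 miRNAs (0.493%) passed. Among the tRNA ends 4 of 92 (4.35%) and among the piRNAs 338 of 5873 (5.76%) passed.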

How the data were processed

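For each library (inserts of 13 to 73 nucleotides) the authors ran the SPORTS pipeline against mm10 and databases of small RNAs, and deposited 1 table per mouse of raw read counts for each class and member, neither normalised nor pooled. Database versions are not given in the sources used here. Genome-matched counts were read as deposited. Members with a mean of at least 10 reads and a read in at least 9 of the 19 mice entered the quasi-likelihood test of edgeR 4.0.16 (glmQLFit and glmQLFTest under R 4.3.3), with all 38 mice in 1 fit, genome-matched reads as library size and Benjamini-Hochberg adjustment over 6216 members. DESeq2 1.42.0 was an alternative. Single values were tested by exact permutation, two-sided, in Python 3.11.15. Littermate log2 differences used a pseudocount of 1 RPM. The tests were tried on simulated counts, in which members varied independently and mice did not differ in their class totals. There the default quasi-likelihood method called more unchanged miRNAs and piRNAs than its nominal level and the older method about that level, and its counts are given beside those of whole classes and of lists with a call.

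Named members are, per kind, up to 5 per direction with the lowest nominal P under 0.05, the 5 most abundant, up to 3 per direction with the same direction in all 8 litters, and the most abundant of each list. Members, lists and alternatives were chosen with earlier results of these data known. Littermates pair the samples by design. Their deviations from the group means correlated over members with r between -0.0193 and 0.367, above 0.1 in 2 of 8 litters. Every pair of mice within a group differed by more than counting noise, with a chi-square of at least 26.2 times its degrees of freedom. Mice are separate animals, so that p-values measure the spread between animals. For nuclear tRNAs and piRNAs no sequence was used here.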

Additional observations from a re-analysis of the deposited data

Results flagged for a closer look

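A mouse stood apart from the rest of its group in 13 of 96 groups of values, over 5 mice. In normally distributed values chance would pick out about 1 group in 20. The rule was applied to skewed RPM values, and every flag was the highest value of its group. That rate therefore cannot be used to judge the 13. The groups of values are not independent, since members of a class share the class total of a mouse. Mouse 47I2 had the highest miRNA and piRNA totals of the CTCT mice (37886 and 142421 RPM). Mouse 57P1 had the highest of the CTPR mice (55459.8 and 237221), and the part of these totals in the flags was not tested. CTCT mouse 47I2, whose group differs between the list of mice and the sample labels, accounted for 6 of the 13. It was highest of its group for the CCA end of tRNA-Leu-AAG (5.99 RPM, next 3.14), mir-3473e (5.32, next 2.80), mir-21a (1734, next 922), piR-mmu-14277894 (0.832, next 0.162), piR-mmu-5467705 (2.99, next 0.495) and piR-mmu-2819708 (4194, next 1246). CTPR mouse 57P1 was highest for mir-143 (7579, next 3234), mir-21a (2956, next 1429) and piR-mmu-2819708 (5750.0, next 2551). The others were CTCT mouse 45L3 for tRNA-Val-AAC (5712, next 3104) and piR-mmu-9289197 (30.3, next 10.2), CTPR mouse 45L1 for piR-mmu-14277894 (19.7, next 3.66) and CTCT mouse 02A6 for piR-mmu-9002755 (6.27, next 2.91).

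A dependence of the post-weaning difference on the diet of the dam was called for 3 piRNAs (edgeR's quasi-likelihood test, adjusted P under 0.05). Of these, piR-mmu-5467705 and piR-mmu-47201994 entered the test only through the CTPR mice, so that their calls are not read as a result. With litter as a block 0 passed, the adjusted P of the 3 being 0.569 to 0.999, and with the sample labels only piR-mmu-14239525 did (9.21, adjusted P = 9.41e-04). For piR-mmu-5467705 the log2 fold change was 6.05 after control dams and -7.78 after restricted dams (interaction 13.83). Its CTPR values were 156 RPM in 57P1, 95.1 in 47I1 and at most 3.21 in the others, of which 4 had no read. The CTPR mouse was the higher littermate in 3 of 8 litters. With 47I1 and 47I2 grouped by the sample labels its log2 fold change was 0.92 (P = 0.511) and the interaction 8.70 (adjusted P = 0.558). With DESeq2 its log2 fold change after control dams was 0.39 (P = 0.809). For piR-mmu-14239525 the values were 1.12 and -8.02 (interaction 9.14, adjusted P = 9.61e-04). For piR-mmu-47201994 they were 4.31 and -2.35 (interaction 6.66), and with the sample labels its first value was 1.38 (P = 0.167) and its interaction 3.74 (adjusted P = 0.721). The CTCT means of piR-mmu-5467705 and piR-mmu-47201994 were 2.50 and 1.5 reads. They passed the filter on low counts only through the CTPR mice, in which they are high, and the values of their adjusted P under 0.05 are not given. All 3 are scarce, with medians of at most 5.63 RPM in either group.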

How the results depend on the processing

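The counts of members at a nominal P under 0.05 depended on the scaling, the method and single mice. tRNA isoacceptors (11) were 0 with TMM factors, 1 with DESeq2, 4 relative to their class, 7 with litter as a block, 17 with the sample labels, 19 without litter 47I, 6 with the older method, 4 without 07C3 and 35F2, and between 4 (without 56I1) and 21 (without 47I2) when 1 mouse was left out, with 17 without 45L3 and 5 to 7 without 07C3, 09H7, 35F1, 35F2, 29L6, 53M4, 49K1 or 57P1. tRNA ends (9) were 2 with TMM factors, 5 with a mean of at least 100 reads, 5 in the 19 mice alone, 14 with the labels, 16 without litter 47I, 5 with the older method, 4 without 07C3 and 35F2, and 6 to 26 leaving out 1 mouse, with 15 without 09H5, 16 without 45L3 and 26 without 47I2. miRNAs (7) were 16 relative to their class, 16 with no filter, 3 in the 19 mice alone, 3 with the block, 17 with the labels, 28 without litter 47I, 1 with the older method, 1 without 07C3 and 35F2, and 2 to 44 leaving out 1 mouse, with 44 without 47I2, 17 without 02A8, 16 without 45L3, 12 without 09H5 and 2 to 4 without any of 13 others. piRNAs (655) were 258 with TMM factors, 226 with DESeq2, 197 relative to their class, 13005 of 414848 with no filter, 251 of 854 with a mean of at least 100 reads, 286 with the block, 239 with the older method, 361 without 07C3 and 35F2, and 374 (without CTPR mouse 57P1) to 973 (without 47I2). The older method with a mean of at least 100 reads, chosen after seeing the data, gave 7, 4, 1 and 125.

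Members past an adjusted P of 0.05 (0 in edgeR's quasi-likelihood test as reported, with 682 at a nominal P under 0.05, and 0 with DESeq2) were 451 of 415640 with no filter, 72 of 1042 with a mean of at least 100 reads (43 of them seen in fewer than 9 mice), 4 with the older method at that filter, 1 with the labels, 2 without litter 47I and 0 to 5 leaving out 1 mouse. Interactions (346) were 178 with DESeq2, 10420 with no filter, 144 at 100 reads, 189 with the block, 146 with the older method, 77 with the older method at 100 reads and 265 to 456 leaving out 1 mouse. Interactions past an adjusted P (3) were 0 with the block, 1 with the labels, 2 with TMM factors, DESeq2 or the older method, 7 without litter 47I and 2 to 6 leaving out 1 mouse. Of the 2 with DESeq2 only piR-mmu-14239525 was among the 3. The tRNA-Gly-GCC share passed 0.05 within litters (6.43 points, exact P = 0.00781, but 5.68 and 0.156 with the labels) and on the logit scale (0.566, exact permutation P = 0.0496), and ranged from 7.58 to 11.5 points leaving out 1 mouse, passing in 6 of 19 cases. The 5′ end share ranged from -2.63 to -1.57 points and the number of piRNAs from -103 (without CTCT mouse 02A6) to 627.

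Of the 95 members that the naming rule picked, the direction turned for 29 with TMM factors, 29 with DESeq2, 35 with the class total, 9 with litter as a block and 2 with the labels, the cause of which was not tested. The text names 45 of the 95, of which 9 turned under some alternative. With TMM factors, DESeq2 and the class total the log2 fold changes were -0.42, -0.48 and -0.30 for tRNA-Glu-CTC, -0.33, -0.35 and -0.43 for tRNA-Lys-CTT, -0.37, -0.39 and -0.55 for tRNA-Gly-CCC, -0.43, -0.47 and -0.63 for tRNA-Val-CAC, -0.48, -0.51 and -0.67 for tRNA-Arg-CCG, -0.17, -0.20 and -0.12 for the tRNA-Gly-GCC 5′ end, -0.40, -0.39 and -0.43 for mir-10a and -0.10, -0.03 and -0.24 for piR-mmu-2819708. mir-21a was -0.01 by the class total. tRNA-Gly-TCC, named outside the rule, went from 0.14 to -0.59, -0.62 and -0.62. With litter as a block tRNA-Val-CAC was -0.08, tRNA-Arg-CCG -0.11, mir-10a -0.14 and piR-mmu-2819708 -1.31. Without 07C3 and 35F2 the first 3 of these were -0.08, -0.11 and -0.04, and leaving out 1 mouse they ranged from -0.12 to 0.18, from -0.08 to 0.19 and from -0.04 to 0.39, tRNA-Gly-CCC from -0.03 to 0.30 and piR-mmu-2819708 from -0.25 to 1.14. Of 45 named members, 27 passed a nominal P under 0.05 as reported, and 20, 18 and 17 of those no longer did with TMM factors, DESeq2 and the class total. The depth limits the scarce piRNAs, most of which had few reads in a mouse.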
